A study of Mus musculus with 6 samples.

Results

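This account covers 40 genes of proteoglycan core proteins and of the enzymes that build, sulfate and trim glycosaminoglycan chains, listed by name, of which 38 were measured among 18194 genes. Each gene is read from the probe set (the group of probes that measures 1 transcript) annotated to that gene alone with the highest mean over all arrays. Xylt1 and Ndst1 were not analysed here. The cells were 393P, a mouse line kept as a mass population from 1 primary tumour of the lung of an animal carrying the alleles p53R172H∆g/+ and K-rasLA1/+, and both groups share this background. In 1 group a vector expressed a short hairpin RNA (shRNA) against MKK4 (393P-shZ), and in the other a control vector carried a scrambled sequence (393P-scr). Map2k4 encodes MKK4, a kinase upstream of JNK and p38. There were 3 cultures per group, 1 array each, of 1 cell population per vector, and p-values therefore reflect differences between cultures alone.

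Proteoglycans are proteins that carry long, negatively charged sugar chains. Syndecans span the cell membrane, glypicans are held to it by a lipid anchor, and versican lies in the matrix. Chain building begins with a short linker of xylose, galactose and glucuronate on the core protein. From the same linker either heparan sulfate (alternating glucosamine and glucuronate) or chondroitin sulfate (alternating galactosamine and glucuronate) is extended in the Golgi, and both are then epimerised and sulfated. Dermatan sulfate is chondroitin sulfate in which part of the glucuronate has been turned into iduronate. Hyaluronan has no core protein and no sulfate and is made at the plasma membrane. In epithelial tumours heparan sulfate is known for binding growth factors at the cell surface.

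The targeted transcript was lower in every shRNA culture. Map2k4 gave 240.1, 295 and 287 intensity units in the shRNA cultures, against 700.3, 638 and 597 units in the control cultures, a log2 fold change (shRNA minus control) of -1.21 with limma adjusted p = 0.000126, and the exact two-sided permutation p was 0.1, the smallest that 3 against 3 allows. Over all genes the arrays correlated with each other at r = 0.991 to 0.996 and their median intensities were 92.0 to 95.8 units. The 3' over 5' signal ratio of Gapdh was 0.826 to 0.854 in the shRNA cultures and 0.837 to 0.853 in the control cultures. The 6 epithelial markers summed to 42502 to 43649 units in the shRNA cultures and 43478 to 43774 units in the control cultures, with Epcam, Cdh1 and Cldn7 called lower and Krt19 higher; their part in the results below was not tested. The lung lineage markers summed to 415 to 434 units in the shRNA cultures and 455 to 484 units in the control cultures. Of the 6, 3 lay within background in both groups, among them the lineage factor Nkx2-1 (1.38 units in the shRNA cultures and 2.32 units in the control cultures) and the club cell marker Scgb1a1 (9.56 units in the shRNA cultures and 11.2 units in the control cultures). Sftpb (266 units in both groups) lay above background. So did Sftpa1 (81.2 units in the shRNA cultures and 107 units in the control cultures) and Sftpc (61.9 units in the shRNA cultures and 75.8 units in the control cultures). Fibroblast markers summed to 449 to 524 units in the shRNA cultures and 466 to 516 units in the control cultures. For leukocyte markers the sums were 265 to 269.6 units in the shRNA cultures and 250.5 to 269.7 units in the control cultures, and for endothelial markers 516 to 659 units in the shRNA cultures and 569.8 to 709.7 units in the control cultures. Of the 7 fibroblast markers 2, of the 5 measured leukocyte markers 2 (Cd3e and Itgam) and of the 5 endothelial markers 2 lay within background. Cd68 (138 units in the shRNA cultures and 146 units in the control cultures) and Tyrobp (74.9 units in the shRNA cultures and 70.9 units in the control cultures) lay above it. Ptprc lay within it in the control cultures only. Background here means no higher than the brightest trpnX control probe set, a bacterial transcript, reached on any array (39.5 units), read on group means.

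Of the 38 measured genes, 7 passed the test. Chsy1, Gpc6, B4galt7, Gpc1 and Glce rose and Sulf2 and Sdc4 fell, with no change as large as 1.5-fold on the log2(intensity + 16) scale used for every fold change here. That scale understates changes of dim genes: the deposited Gpc6 means had a ratio of 1.61. The 5 rises and 2 falls were called by limma with Benjamini-Hochberg adjustment over all genes at 0.05, and make up 18.4% of the 38 measured, where 11.8% of all genes were called (6.39% higher, 5.39% lower). The genes were listed with earlier results of these data known, so this share does not test them as a set. The share called depends on brightness: among genes above the median gene 20.8% were called, and 6 of the 19 listed genes there. The median size of change was 0.13 on the log2 scale over the 38 and 0.10 over all genes. After normalization the groups did not overlap in 15 of the 38 (10 higher, 5 lower), or 39.5%, where 28.5% of all genes had groups apart (14.6% higher, 14.0% lower). In the intensities as deposited, which are the values printed per culture here, 14 of the 38 were apart: Sdc1 and Extl2 overlapped and Ndst2 did not. In bulk RNA, less RNA per cell and fewer cells that make it cannot be told apart. Of the 38 genes, 7 lay within background in both groups, 3 in 1 group, and 28 above it in both.

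**Figure D1:**
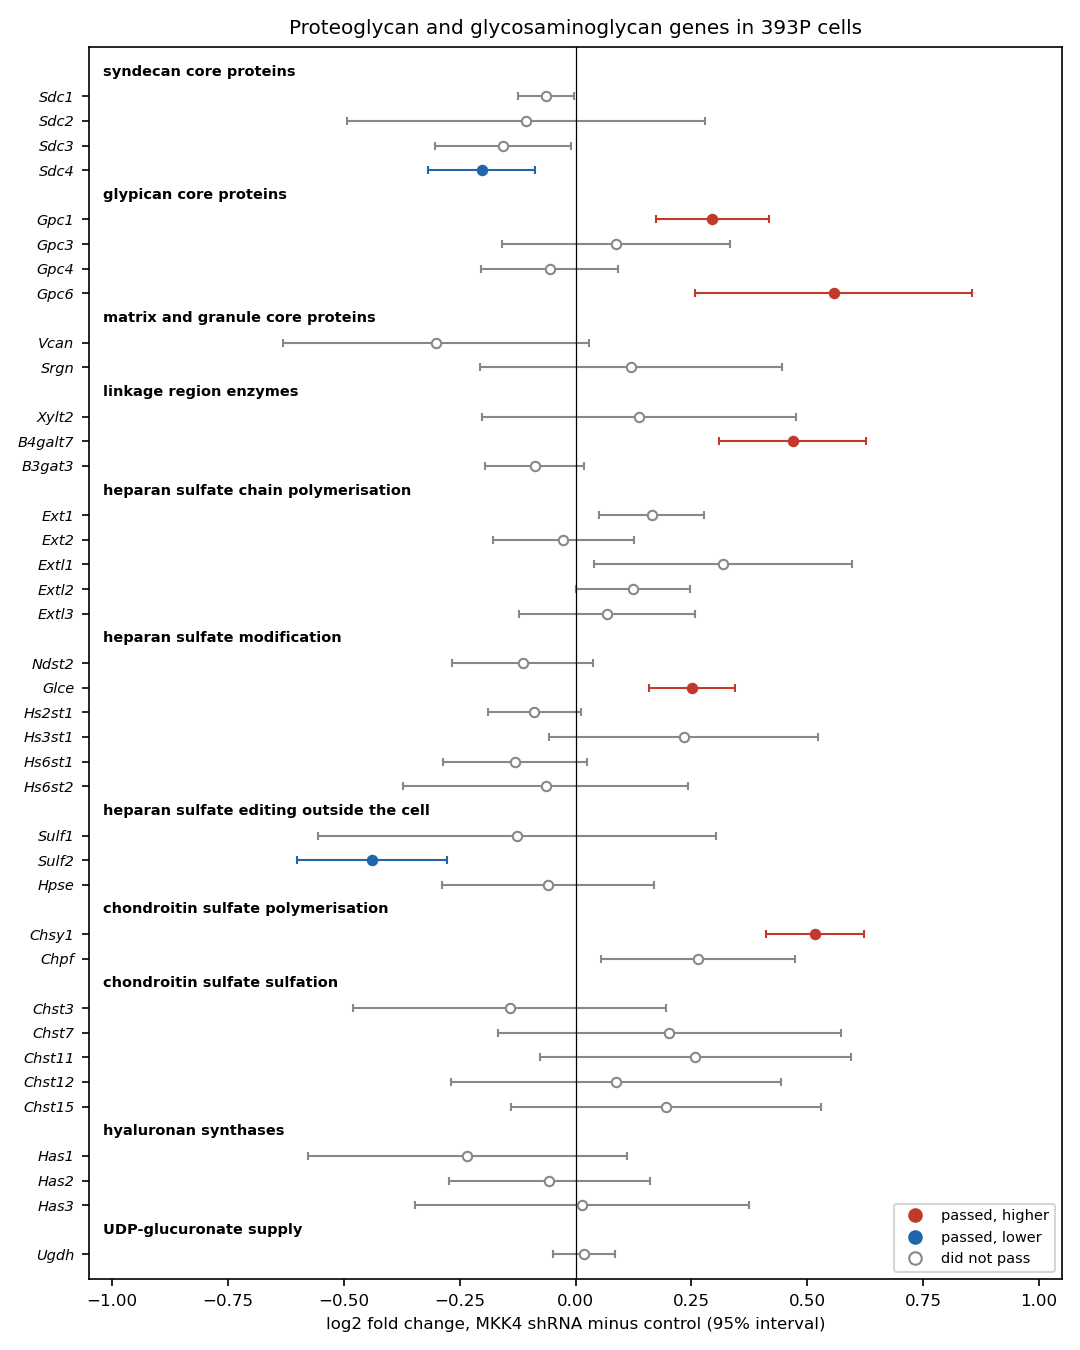
Log2 fold change, MKK4 shRNA minus control on the log2(intensity + 16) scale, of the 38 measured genes by role, with 95% limma intervals; filled points passed the test (red higher, blue lower) and open points did not. Chsy1 (0.52), Gpc6 (0.56), B4galt7 (0.47), Gpc1 (0.30) and Glce (0.25) lie to the right, and Sulf2 (-0.44) and Sdc4 (-0.20) to the left.

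JNK acts in part through AP-1 transcription factors, so the promoter windows of the genes that passed are shown with the motifs searched in capitals. Windows run from 250 bases before to 50 bases after an annotated start (RefSeq, GRCm38.p6), read 5′ to 3′ on the gene's strand. Windows of 30 of the 40 genes were used, 35 in all, and none was found for Gpc1 or Gpc6. Ndst1 was not among the 30, so the 35 need not be every window of the listed genes. For Sulf2, which has a pair of windows, the one with motif matches is shown.
Chsy1 (chr7:66109242-66109541, plus strand): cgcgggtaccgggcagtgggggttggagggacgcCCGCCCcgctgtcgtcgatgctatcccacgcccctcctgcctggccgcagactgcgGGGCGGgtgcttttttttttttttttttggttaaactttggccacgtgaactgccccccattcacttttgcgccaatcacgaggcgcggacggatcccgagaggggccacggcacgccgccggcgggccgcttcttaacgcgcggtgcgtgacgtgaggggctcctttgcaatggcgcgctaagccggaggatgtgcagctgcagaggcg
Glce (chr9:62122560-62122859, minus strand): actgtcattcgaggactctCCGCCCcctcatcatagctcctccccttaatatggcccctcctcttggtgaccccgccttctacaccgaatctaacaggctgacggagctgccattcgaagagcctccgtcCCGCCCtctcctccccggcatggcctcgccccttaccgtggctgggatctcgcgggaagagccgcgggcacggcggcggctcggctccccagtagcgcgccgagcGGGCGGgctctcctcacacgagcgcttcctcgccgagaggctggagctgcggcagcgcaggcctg
B4galt7 (chr13:55599646-55599945, plus strand): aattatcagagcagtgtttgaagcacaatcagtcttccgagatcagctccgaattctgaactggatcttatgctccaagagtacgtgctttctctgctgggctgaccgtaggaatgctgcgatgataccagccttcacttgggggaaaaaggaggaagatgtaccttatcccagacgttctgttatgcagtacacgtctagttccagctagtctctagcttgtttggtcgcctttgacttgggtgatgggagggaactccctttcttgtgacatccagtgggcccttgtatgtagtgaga
Sdc4 (chr2:164443139-164443438, minus strand): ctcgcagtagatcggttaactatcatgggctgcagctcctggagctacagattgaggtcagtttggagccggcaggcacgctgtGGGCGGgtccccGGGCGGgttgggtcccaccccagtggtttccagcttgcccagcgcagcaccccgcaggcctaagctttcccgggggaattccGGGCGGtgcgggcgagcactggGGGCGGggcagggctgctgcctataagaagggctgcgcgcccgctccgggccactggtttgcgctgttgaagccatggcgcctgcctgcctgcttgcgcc
Sulf2 (chr2:166155634-166155933, minus strand): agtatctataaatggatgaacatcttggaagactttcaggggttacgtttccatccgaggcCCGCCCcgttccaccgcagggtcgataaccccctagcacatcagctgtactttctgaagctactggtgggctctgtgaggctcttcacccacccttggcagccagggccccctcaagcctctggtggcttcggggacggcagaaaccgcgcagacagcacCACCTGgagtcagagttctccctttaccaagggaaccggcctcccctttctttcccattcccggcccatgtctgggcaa

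The capitals mark the GC box (GGGCGG), the E-box (CAGGTG), the AP-1 motif (TGACTCA) and the CRE bound by ATF and CREB factors (TGACGTCA), each searched on both strands, with no 2 motifs overlapping in these windows. The AP-1 letters were in 0 of the 35 windows used for the listed genes and in 5.20% of all 32851 windows. The CRE was in 2 of the 35, those of Chpf and Has1, and in 1.79% of all. The E-box was in 2 of the 35, those of Sulf2 and B3gat3, and in 20.2% of all, and the GC box in 24 of the 35, or 68.6%, and in 35.7% of all. Sdc4 has 4 GC boxes, Glce 3 and Chsy1 2, while the B4galt7 window has none of these motifs. A match is a description, not a binding site.

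Among core proteins, 1 of 4 syndecans was called lower and 2 of 4 glypicans higher, where 5.39% and 6.39% of all genes were. With 4 genes in each family, these counts do not tell the families apart. Sdc4, a syndecan of focal adhesions, gave 1487, 1678 and 1455.5 intensity units in the shRNA cultures, against 1759, 1751 and 1782 units in the control cultures. All shRNA values lay below all control values, with means of 1540.2 ± 121 units in the shRNA cultures and 1764 ± 16.03 units in the control cultures (SD, n = 3 each), a 1.15-fold fall (log2 -0.20, SE 0.050, limma adjusted p = 0.0368). The other Sdc4 probe set fell more, at 884 ± 98.4 units in the shRNA cultures and 1203 ± 87.4 units in the control cultures (SD, n = 3), a log2 fold change of -0.45 with adjusted p = 0.0201 over all probe sets, of which 6.37% passed. The probe set used did not pass in that fit (adjusted p = 0.0633). On the probe set used, the Sdc4 call was lost without shRNA replicate 1 (adjusted p = 0.0835) or 3 (0.08) and without control replicate 1 (0.0788), 2 (0.108) or 3 (0.128). Sdc4 lies on chromosome 2, where genes at large were lower, as described below, and with each gene centred on its chromosome its log2 fold change was -0.09 (adjusted p = 0.309).

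The other syndecans did not pass. Sdc1, the main syndecan of epithelia, gave 6895, 6795 and 6854 units in the shRNA cultures and 7042, 6828 and 7200.4 units in the control cultures. Sdc3 gave 285, 283 and 260.2 units in the shRNA cultures and 303, 313 and 307 units in the control cultures. For these 2 genes the log2 fold changes were -0.06 (adjusted p = 0.189; 95% interval -0.12 to -0.0024) and -0.16 (0.177; -0.30 to -0.01). As deposited the groups overlapped for Sdc1 and not for Sdc3. The 4 Sdc1 probe sets gave -0.18 to -0.04, none passing. Sdc2 varied more, at 116, 82.4 and 68.8 units in the shRNA cultures and 104, 81.3 and 102 units in the control cultures, and its groups overlapped (log2 -0.11, adjusted p = 0.773; 0.02 without shRNA replicate 3).

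Gpc1, a glypican of many epithelial tumours, gave 565, 573 and 553 units in the shRNA cultures, against 445, 443 and 469 units in the control cultures. The groups were far apart relative to their spread, at 564 ± 9.76 units in the shRNA cultures and 452 ± 14.1 units in the control cultures (SD, n = 3), a 1.23-fold rise (log2 0.30, SE 0.053, limma adjusted p = 0.00991). It has 1 probe set and passed in all 16 alternative settings. Those that average probe sets or drop ambiguous ones reuse the same Gpc1 values, so they do not check the probe set. Gpc6 gave 89.9, 95.1 and 121 units in the shRNA cultures, against 63.1, 66.1 and 60.9 units in the control cultures, means of 102 ± 16.9 units in the shRNA cultures and 63.4 ± 2.64 units in the control cultures (SD, n = 3). The ratio of these means is 1.61, and on the log2(intensity + 16) scale the rise was 1.47-fold (log2 0.56, SE 0.13, limma adjusted p = 0.0288). The shRNA replicate 3 was the highest, and without it the log2 fold change was 0.43 (adjusted p = 0.0612). The call was also lost without shRNA replicate 2 (0.0747) or control replicate 1 (0.0875), 2 (0.0801) or 3 (0.103). The 3 other Gpc6 probe sets above background gave 0.21, 0.17 and -0.02, none passing on its own, and in that fit of every probe set the one used did not pass either (adjusted p = 0.0505). The mean of all 5 Gpc6 probe sets passed (log2 0.35, adjusted p = 0.0386). One more, within background in both groups (15.9 units in the shRNA cultures and 2.37 units in the control cultures), gave 0.80 and passed in that fit.

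Gpc3 and Gpc4 did not pass. Gpc4 gave 426, 400.3 and 444 units in the shRNA cultures and 454, 425 and 431 units in the control cultures (log2 -0.06, adjusted p = 0.678; 95% interval -0.20 to 0.09). Gpc3 gave 87.0, 98.7 and 91.4 units in the shRNA cultures and 96.2, 80.5 and 79.8 units in the control cultures (log2 0.09, adjusted p = 0.698). Both had overlapping groups, while Gpc1 and Gpc6 did not.

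Vcan, which encodes the matrix proteoglycan versican, was dim and its probe sets disagreed. The probe set used gave 51.3, 31.7 and 35.9 units in the shRNA cultures and 56.7, 46.3 and 53.1 units in the control cultures (log2 -0.30, adjusted p = 0.253). Another gave 56.4 ± 5.35 units in the shRNA cultures and 26.9 ± 11.2 units in the control cultures (SD, n = 3), a log2 fold change of 0.78 with adjusted p = 0.0554 over all probe sets. The 8 Vcan probe sets ran from -0.30 to 0.78, no direction is given for the gene, and its 95% interval on the probe set used (-0.63 to 0.03) reaches 1.5-fold. Srgn, the core protein of secretory granules in blood cells, lay within background in both groups (4.57 units in the shRNA cultures and 2.83 units in the control cultures).

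**Figure D2:**
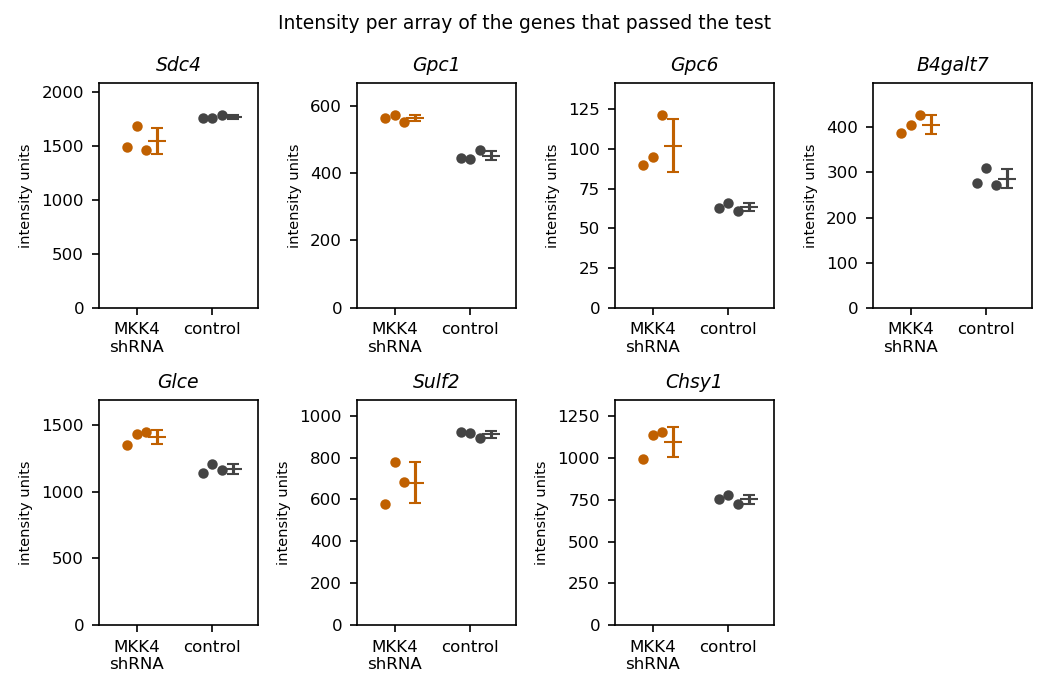
Intensity units per array as deposited for the 7 genes that passed; points are the 3 cultures of each group (MKK4 shRNA left, control right) and the bar beside them is the mean with its SD, on axes that start at 0. The groups do not overlap in any of the 7 genes, and the shRNA cultures are more spread than the controls for Sulf2, Sdc4, Gpc6, Chsy1 and Glce.

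In the linker, B4galt7 rose. It encodes the galactosyltransferase that adds the first galactose to xylose and so serves heparan and chondroitin chains alike. It gave 387, 404 and 427 units in the shRNA cultures, against 276, 310.2 and 272 units in the control cultures. The lowest shRNA value lay above the highest control value, with means of 406 ± 20.4 units in the shRNA cultures and 286 ± 20.9 units in the control cultures (SD, n = 3), a 1.38-fold rise (log2 0.47, SE 0.069, limma adjusted p = 0.00435). The probe set used can match several transcripts, and the other, at 146 ± 8.19 units in the shRNA cultures and 113 ± 11.8 units in the control cultures (SD, n = 3), gave a log2 fold change of 0.33 that did not pass when tested in its place (adjusted p = 0.0919). B4galt7 lies on chromosome 13, where genes at large were higher, and gave 0.36 centred on its chromosome (adjusted p = 0.0113).

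The enzymes before and after it did not pass. Xylt2, a xylosyltransferase that starts the linker, gave 67.1, 58.5 and 85.4 units in the shRNA cultures and 65.6, 54.5 and 65.3 units in the control cultures (log2 0.14, adjusted p = 0.655). B3gat3, which adds the glucuronate that completes the linker, gave 549.6, 576 and 543 units in the shRNA cultures and 578, 599 and 579 units in the control cultures (log2 -0.09, adjusted p = 0.307). The groups overlapped for Xylt2 and did not for B3gat3.

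Of the 5 heparan sulfate polymerisation genes none passed adjustment, while Ext1, Extl1 and Extl2 had an unadjusted p under 0.05 and groups apart after normalization, where 24.1% of all genes had such a p and 28.5% had groups apart. Ext1, a subunit of the copolymerase, gave 628, 655 and 698 units in the shRNA cultures and 572, 586 and 578 units in the control cultures (log2 0.16, adjusted p = 0.0726). Ext1 passed in 1 of 16 settings, among genes above the median gene only (adjusted p = 0.0403), and centred on its chromosome, 15, it gave 0.05 (adjusted p = 0.598). With its probe sets averaged the sign turned (-0.14, adjusted p = 0.643). Its partner Ext2 gave 459, 481 and 416 units in the shRNA cultures and 463, 476 and 430.1 units in the control cultures (log2 -0.03, adjusted p = 0.866; 95% interval -0.18 to 0.13). Extl2 and Extl3, which encode enzymes that act on the linker, gave log2 fold changes of 0.12 (adjusted p = 0.204) and 0.07 (0.698). Extl1, with controls within background (42.2 units in the shRNA cultures and 30.5 units in the control cultures), gave 0.32 (0.148).

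Of the heparan sulfate modification enzymes, Glce rose. Glce encodes the epimerase that turns glucuronate of heparan sulfate into iduronate. It gave 1353, 1439 and 1448 units in the shRNA cultures, against 1139, 1212 and 1165 units in the control cultures. The groups were apart, at 1413 ± 52.5 units in the shRNA cultures and 1172 ± 37.0 units in the control cultures (SD, n = 3), a 1.19-fold rise (log2 0.25, SE 0.041, limma adjusted p = 0.00638). The 2 other probe sets were dimmer and gave 0.29 and -0.26, neither passing, and the mean of all Glce probe sets did not pass (log2 0.09, adjusted p = 0.452).

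The sulfotransferases that act beside the epimerase did not pass. Hs2st1, which sulfates the iduronate, gave 1423, 1681 and 1581 units in the shRNA cultures and 1644, 1685 and 1634 units in the control cultures (log2 -0.09, adjusted p = 0.27). Its 4 probe sets gave -0.15 to -0.07. Ndst2, a deacetylase and sulfotransferase of glucosamine, gave 280.5, 268 and 262 units in the shRNA cultures and 306, 283 and 289 units in the control cultures (log2 -0.11, adjusted p = 0.358). The groups overlapped for Hs2st1, while every deposited shRNA value of Ndst2 lay below every control value. Hs6st1, another glucosamine sulfotransferase, gave 279.5, 325 and 283 units in the shRNA cultures and 329.5, 305 and 331 units in the control cultures (log2 -0.13, adjusted p = 0.297). Hs6st2 gave -0.06 (adjusted p = 0.834), on the 1 of its 4 probe sets above background. Hs3st1, whose product completes the antithrombin binding site of heparin, was dim, with means of 43.2 units in the shRNA cultures and 34.8 units in the control cultures, and gave 0.23 (adjusted p = 0.321).

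Outside the cell, Sulf2 fell on the probe set used. Sulf2 encodes a secreted sulfatase that removes sulfate from glucosamine of finished heparan sulfate chains. It gave 579.9, 778 and 682 units in the shRNA cultures, against 920.4, 919 and 893 units in the control cultures. Every shRNA culture lay below every control culture, with means of 679.8 ± 98.8 units in the shRNA cultures and 911 ± 15.3 units in the control cultures (SD, n = 3), a 1.36-fold fall (log2 -0.44, SE 0.070, limma adjusted p = 0.00616). The other 2 Sulf2 probe sets went the other way without passing, at 184 ± 29.8 units in the shRNA cultures and 165 ± 9.02 units in the control cultures (log2 0.12), and at 91.2 ± 9.30 units in the shRNA cultures and 76.6 ± 9.68 units in the control cultures (0.21; SD, n = 3). The mean of the 3 probe sets gave -0.04 (adjusted p = 0.793), so the fall rests on 1 probe set. Sulf2 is also on chromosome 2, and gave -0.33 centred on it (adjusted p = 0.0147). Its relative Sulf1 lay within background in both groups (23.7 units in the shRNA cultures and 27.4 units in the control cultures). Hpse, the gene of heparanase, which cuts heparan sulfate chains, gave 117, 105 and 111 units in the shRNA cultures and 104, 119 and 125 units in the control cultures (log2 -0.06, adjusted p = 0.791).

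**Figure D3:**
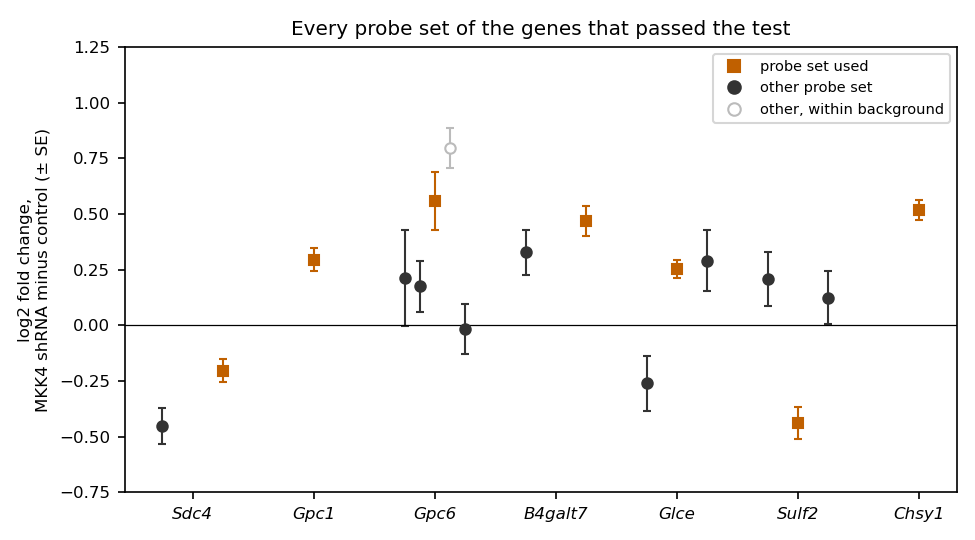
Log2 fold change ± SE of every probe set of the 7 genes that passed, each tested on its own; orange squares are the probe sets used, dark points other probe sets and open grey points those within background in both groups. The 2 other Sulf2 probe sets lie above 0 (0.21 and 0.12) where the one used lies at -0.44, while the second Sdc4 probe set (-0.45) and the second B4galt7 probe set (0.33) share the sign of the one used.

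Chondroitin sulfate polymerisation held the smallest adjusted p of the listed genes. Chsy1 encodes chondroitin synthase, which extends the chain. It gave 993, 1137 and 1154 units in the shRNA cultures, against 755, 779 and 724 units in the control cultures. All shRNA values exceeded all control values, with means of 1094 ± 88.6 units in the shRNA cultures and 753 ± 27.5 units in the control cultures (SD, n = 3), a 1.43-fold rise (log2 0.52, SE 0.046, limma adjusted p = 0.000524). Chsy1 has 1 probe set and passed in all 16 alternative settings, with log2 fold changes of 0.49 to 0.55. As for Gpc1, the settings that average or drop probe sets reuse the same values of Chsy1. Chpf, which encodes its polymerising partner, gave 225, 250.2 and 231 units in the shRNA cultures and 176, 218 and 182 units in the control cultures. Its groups were apart too, but the log2 fold change of 0.26 did not pass (adjusted p = 0.111); it passed in 2 of 15 settings, without control replicate 2 (0.35, adjusted p = 0.047) and among genes above the median gene (0.0444).

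The 5 chondroitin sulfotransferase genes were dim and none passed. Chst7, Chst11 and Chst12 lay within background in both groups (means of 7.33 to 28.5 units), and the Chst15 mean lay within it in the control cultures only (46.2 units in the shRNA cultures and 39.1 units in the control cultures). Chst3, which sulfates galactosamine, gave 114, 119 and 84.0 units in the shRNA cultures and 115, 98.7 and 139 units in the control cultures (log2 -0.14, adjusted p = 0.641).

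Of a further list of 19 measured chain synthesis genes 4 rose, 1 of them within background, and none fell, or 21.1%, where 11.8% of all genes were called. Dse and Dsel encode the epimerases that turn chondroitin into dermatan sulfate. Dse gave 158, 166 and 188 units in the shRNA cultures, against 50.7, 47.5 and 44.6 units in the control cultures (log2 1.54, limma adjusted p = 0.000143). Dsel gave 114, 124 and 112 units in the shRNA cultures, against 43.3, 49.0 and 52.8 units in the control cultures (log2 1.04, adjusted p = 0.000677). These changes were larger than that of any of the 38 listed genes, with controls just above background, and each gene has 1 probe set. Csgalnact2, which encodes an enzyme that starts the chondroitin chain, averaged 979 ± 50.6 units in the shRNA cultures and 771 ± 49.1 units in the control cultures (SD, n = 3; log2 0.33, adjusted p = 0.00304). Its relative Csgalnact1 gave 0.36 and did not pass (adjusted p = 0.0518). The other chondroitin and dermatan genes of that list did not pass: the log2 fold changes were -0.10 for Chsy3 and -0.02 for Chpf2, both of polymerisation, and -0.15 for Chst14 (groups apart), 0.04 for Chst13 and 0.09 for Ust, all of sulfation. Csgalnact2, Dse and Dsel passed in every alternative setting in which they were tested, but with 1 probe set each no setting checks the probe set. Pxylp1, a phosphatase gene of the linker, was called higher with both groups within background (32.2 units in the shRNA cultures and 9.47 units in the control cultures), and on another probe set it did not pass (log2 0.06, adjusted p = 0.848).

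**Figure D4:**
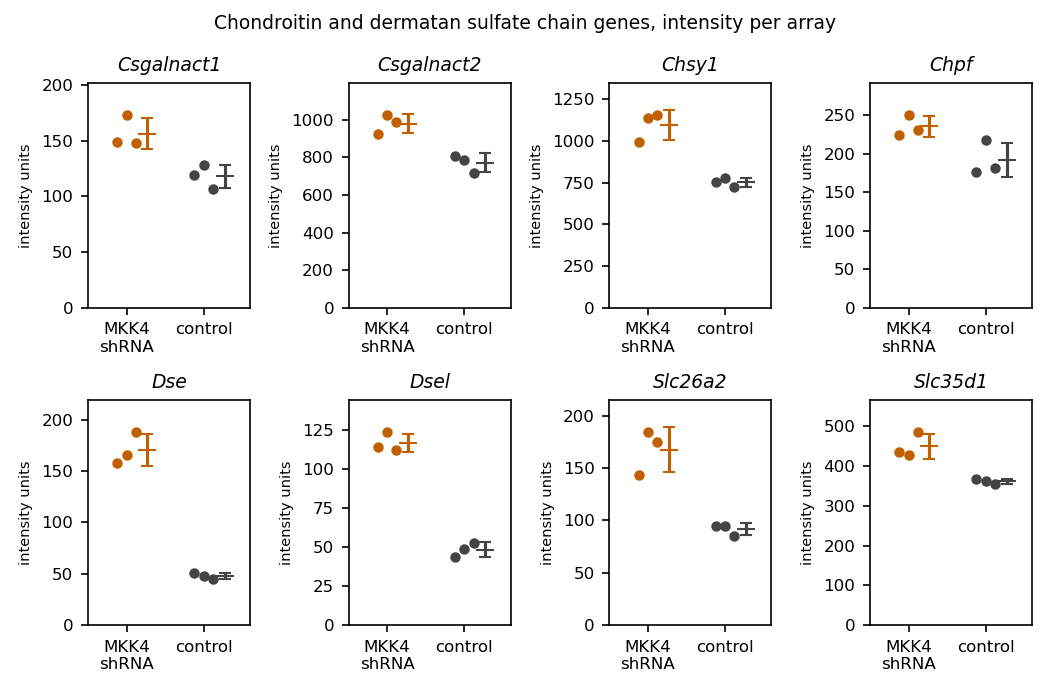
Intensity units per array as deposited for 8 genes of chondroitin and dermatan sulfate chains, in order of chain start, polymerisation, epimerisation and supply; points are the 3 cultures of each group (MKK4 shRNA left, control right), with the mean and SD beside them, on axes that start at 0. Dse (170.5 ± 15.5 units with shRNA, 47.6 ± 3.04 units in control) and Dsel (117 ± 6.02 units with shRNA, 48.4 ± 4.78 units in control) show the widest gaps relative to their control level. The 8 genes drawn are mostly ones called higher, so the positive sign they share follows from the choice. Over all 18194 genes, 8740 had a positive log2 fold change. Csgalnact1 and Chpf did not pass the test. Not drawn are Chsy3 (-0.10) and Chpf2 (-0.02), and the sulfation genes, such as Chst14 (-0.15), Chst3 (-0.14) and Ust (0.09), none of which passed. Other supply genes, such as Ugdh (0.02), Gnpnat1 (0.52) and Pgm3 (-0.36), are not drawn either.

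Among 18 measured genes of sulfate and sugar nucleotide supply, 3 rose and 2 fell, or 27.8%, where 11.8% of all genes were called. Slc26a2, a sulfate transporter of the plasma membrane, gave 144, 184 and 175 units in the shRNA cultures, against 94.96, 94.6 and 84.7 units in the control cultures (log2 0.76, limma adjusted p = 0.00384). A second Slc26a2 probe set gave 1.07, and the gene passed in all 15 settings. Slc35d1, which carries UDP-glucuronate and UDP-galactosamine into the endoplasmic reticulum, averaged 449.8 ± 31.1 units in the shRNA cultures and 362 ± 6.73 units in the control cultures (SD, n = 3; log2 0.29, adjusted p = 0.0255). Slc35d1 held its call in 9 of 16 settings; the call was lost without shRNA replicate 1 or 3 and without any 1 control replicate (highest adjusted p = 0.0864). Gnpnat1, of UDP-glucosamine synthesis, rose by 0.52 (adjusted p = 0.000194) and Pgm3, the next enzyme of that path, fell by 0.36 on the log2 scale (0.0376, passing in 7 of 16 settings), while Gfpt1, the first, gave -0.14 (0.0349, passing in 5 of 16). Ugdh, a listed gene whose enzyme makes UDP-glucuronate for all these chains, gave 4559, 4602 and 4684 units in the shRNA cultures and 4580, 4278 and 4468 units in the control cultures. Its log2 fold change was 0.02 (adjusted p = 0.785), and the 95% interval of -0.05 to 0.08 bounds any difference on this probe set closely.

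The hyaluronan synthases gave no call. Has2 gave 172, 162 and 138 units in the shRNA cultures and 165, 153 and 169 units in the control cultures (log2 -0.06, adjusted p = 0.787; 95% interval -0.27 to 0.16). Has1 and Has3 lay within background in both groups (1.20 units in the shRNA cultures and 4.46 units in the control cultures, and 24.8 units in the shRNA cultures and 24.99 units in the control cultures). Of 15 genes of hyaluronan binding and breakdown 1 was called, or 6.67%, where 11.8% of all genes were. It was Itih2, within background in both groups (31.1 units in the shRNA cultures and 11.7 units in the control cultures). The receptor gene Cd44 gave a log2 fold change of -0.04 (adjusted p = 0.382).

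Of 12 measured genes of lysosomal breakdown 3 rose and none fell, or 25%, where 11.8% of all genes were called. Arsb, whose enzyme removes sulfate from chondroitin and dermatan sulfate, gave 370.0, 408 and 381 units in the shRNA cultures, against 78.4, 74.4 and 73.8 units in the control cultures (log2 2.12, limma adjusted p = 7.16e-06), but another Arsb probe set of like brightness in the controls gave 0.07. Gusb, of beta-glucuronidase, rose by 0.34 (adjusted p = 0.034, passing in 9 of 16 settings), and Ids, of iduronate sulfatase, by 0.27 (0.00875, but -0.03 with its 6 probe sets averaged). Of 20 other proteoglycan cores 2 rose and 2 fell, or 20%. Nrp1, a semaphorin and VEGF coreceptor that can carry a chain, gave 247, 363 and 286 units in the shRNA cultures, against 106, 99.2 and 93.2 units in the control cultures (log2 1.42, adjusted p = 0.00046), with 0.07 to 0.35 on its other probe sets. Col18a1, a basement membrane collagen with heparan sulfate chains, averaged 3005 ± 29.8 units in the shRNA cultures and 2452 ± 89.7 units in the control cultures (SD, n = 3; log2 0.27, adjusted p = 0.00384), and 0.36 on its second probe set. The log2 fold change was -0.17 for Agrn, of the heparan sulfate proteoglycan agrin (adjusted p = 0.0261, passing in 6 of 16 settings), and -0.20 for Smc3, a cohesin subunit also described as a proteoglycan core (0.0288, 5 of 16). Over these 84 measured genes outside the list, 13 rose and 4 fell, or 20.2%, where 11.8% of all genes were called. Of the 38 among them above the median gene 10 were called, or 26.3%, where 20.8% of all such genes were. These lists too were chosen with earlier results of these data known, so the shares do not test them as sets.

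The listed genes sit on chromosomes whose genes at large were not all level between the groups. On chromosome 2, which carries Sdc4, Sulf2 and Ext2, the median log2 fold change of genes above the median gene was -0.10, and 16.2% of its 1399 genes were called lower against 2.07% higher. On chromosome 13 (B4galt7, Vcan) and chromosome 15 (Ext1, Has2, Sdc2) the medians were 0.10 and 0.11, with 14.8% and 16.9% of genes called higher. Chromosome 11 (Xylt2) had a median of 0.099, with 15.4% of genes called higher, and Xylt2 gave 0.03 centred on it. The medians of the chromosomes of Chsy1 (7, -0.02), Glce (9, -0.02), Gpc1 (1, 0.02) and Gpc6 (14, 0.03) were nearer 0. With every gene centred on its chromosome, a setting chosen after seeing the data, 6 of the 7 calls held and that of Sdc4 did not. The source of these chromosome shifts was not tested.

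**Figure D5:**
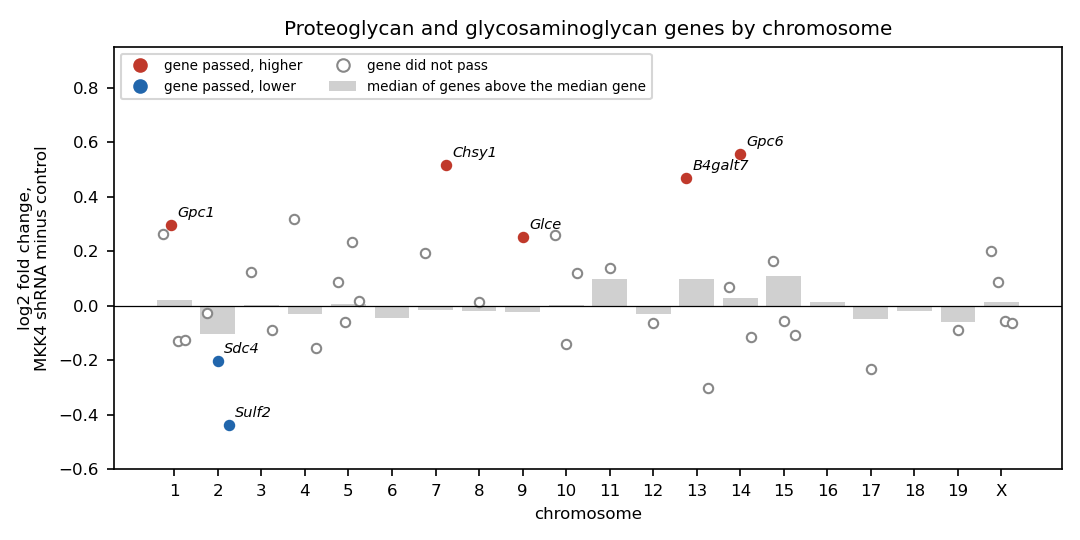
Log2 fold change (MKK4 shRNA minus control) of the 38 genes, placed by chromosome; grey bars are the median of all genes of that chromosome above the median gene, filled points passed the test and open points did not. Both genes that fell, Sulf2 and Sdc4, stand on chromosome 2, whose bar is at -0.10, and Chsy1 stands at 0.52 over a bar of -0.02.

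Among the 31 genes that did not pass, 21 lay above background in both groups. For 20 of these the 95% limma interval of the probe set used lay within a 1.5-fold change either way on that log2 scale. Vcan was the exception. The intervals do not cover other probe sets, such as one of Ext1 above background at -0.44 (SE 0.26). For these 20 a difference under 1.5-fold remains possible. The other 10 were within background in at least 1 group, where the scale compresses changes, so an interval there does not bound the change of the transcript.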

How the data were processed

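Per the labels' protocols, biotin-labelled RNA of 6 cultures was measured on Affymetrix arrays of 1 colour. The authors deposited linear intensities for 45101 probe sets; the sources used here do not give how probes were summarised or normalized. The labels describe delivery of the vectors both as retroviral infection and as transfection. The number of arrays limits the precision.

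A pseudocount of 16 was added, log2 taken and arrays quantile-normalized (limma 3.58.1, R 4.3.3); the tests did not include 64 control probe sets. Fold changes are on this scale and understate changes of dim genes. Of the probe sets, 34945 have 1 annotated gene, 932 several and 9160 none listed; updating symbols by Entrez number found 18032 of 18194 genes in the RefSeq table (GRCm38.p6). The test was limma's (lmFit with group alone, then eBayes with a variance trend), Benjamini-Hochberg adjusted at 0.05 over all genes. Intervals are limma's 95%.

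Alternatives were no normalization, median centring, pseudocounts of 1 and 64, genes above the median gene only, probe sets averaged, only probe sets specific to 1 transcript by their suffix, no trend, the replicate letter as a block, each array left out, every probe set on its own and, chosen after seeing the data, chromosome centring. Named were all listed genes and, of 5 further lists, called genes, at most 4 per list by size. Where more are named, they were chosen after their values were seen. The members and lists were chosen with earlier results of these data known. On simulated data with 18194 genes and 200 changed, the test recovered 48% of changes of 0.5 and 74% of changes of 1 (log2), and 0.813% of calls were unchanged genes. Far more genes, 2143, were called in the data, so these shares need not hold there. Samples with the same letter did not deviate together (correlations of -0.11 to -0.0076), and those with different letters gave -0.09 to 0.13. With 3 arrays per group such correlations cannot exclude pairing. The labels were read as unpaired, with the letter as a block among the alternatives.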

Additional observations from a re-analysis of the deposited data

How the results depend on the processing

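Over 16 settings (15 or fewer where a gene dropped out), the 38 genes had 586 values; 564 kept the side of the threshold of the value reported, 19 lost the call, 3 gained it and none that was called changed sign. Chsy1 and Gpc1 passed in every setting, but each has 1 probe set, so the settings that average or drop probe sets reuse its values. The number of listed genes called was 5 to 8 over the settings, and 5 to 6 with 1 array left out. It was 5 with the replicate block, under which Sdc4 (adjusted p = 0.0909) and Gpc6 (0.0719) were lost and the other 5 calls held. Sdc4 was also lost as deposited (0.0742), with median centring (0.0521) and without a trend (0.128). Over all genes 1211 were called with the replicate block and 1130 without a trend in the prior variance, where 2143 were called in the setting reported. With 1 array left out the count ran from 1160 to 1670, the lowest without shRNA replicate 2, then 1254 without shRNA replicate 3, 1328 without control replicate 3 and 1354 without control replicate 2. As deposited 977 genes were higher and 565 lower, where 1162 and 981 were in the setting reported. The calls lost for Sulf2 and Glce came with averaged probe sets and that for B4galt7 when probe sets of ambiguous match were dropped, and their values are given with the genes. Signal near background limits what can be said of 10 of the 38 genes.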
